A study of Mus musculus with 4 samples.

Results

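The proteasome genes were read from arrays of spotted cDNA clones hybridised with RNA of C2C12 cells, an established line of mouse muscle precursor cells. The members were chosen by symbol: 53 clone spots carried a symbol that begins with Psma, Psmb, Psmc, Psmd, Psme or Psmf and a number. They gave 33 genes of the 6726 genes named on the array. One of them, Psmc3ip, shares the letters only, since it encodes a factor of meiotic recombination, and it was kept out of the counts, which leaves 32 proteasome genes with 50 clones. Where a gene had more than 1 clone, its values are those of the clone whose score averaged highest across the 4 arrays. The groups were proliferating C2C12 myoblasts transfected with siRNA against HuR (2 arrays) and the same cells transfected with a control siRNA (2 arrays), both grown in serum-containing DMEM with antibiotics. No siRNA sequence, dose or time is given in the labels, and the deposited columns of both groups carry the number 48 with no unit. Nor is it stated there that replicate arrays stand for separate cultures, so p-values cover only array-to-array spread, which may be technical. The comparison asks whether transcripts differ where HuR, an RNA-binding protein encoded by Elavl1, is targeted.

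The proteasome is the protease that breaks down ubiquitin-tagged proteins in the cytosol and nucleus. Its barrel-shaped core has outer alpha rings, which gate the entry, and inner beta rings, which hold the catalytic sites. A regulatory particle caps the core: the ATPase ring of its base unfolds substrates and threads them into the core, and its lid removes ubiquitin. In muscle the proteasome is known for the turnover of myofibrillar proteins and of short-lived regulators of differentiation.

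Values are z-scores as the authors deposited them, so 1 unit is the SD of all values in one of the 2 sections of an array, and no fold change can be given. Scores of different genes come from different clones, so their order says nothing about which transcript is more abundant. The 32 chosen clones had mean scores of -0.938 to 3.07. None of them sat at the most frequent value of its array section, where over 100 spots per section share a score. Psmd3 lay below that value on all 4 arrays, at -0.9 and -0.98 with HuR siRNA and -1.01 and -0.86 with control siRNA. Psmb7 lay below it on HuR siRNA replicate 1, at -0.76 against -0.68. The 32 chosen clones came from 29 source plates, with at most 2 on a plate. None of the 10 myoblast markers looked for (Myod1, Myf5, Des and others) was matched to a named clone here, so the labelled cell type could not be checked on them. Of the markers of immune and endothelial cells 4 were measured. The median score of a section lay below its mean, at -0.23 to -0.16. All 4 markers lay below the mean of their section, but Lyz2 (mean score -0.045) and Pecam1 (-0.065) lay above its median. Their summed scores were -0.41 and -0.43 with HuR siRNA against -0.25 and -0.37 with control siRNA for the immune markers, and -1.48 and -1.6 against -1.32 and -1.03 for the endothelial markers, and their part in the results below was not tested. None of the 4 adipocyte markers was measured. The 1 measured keratinocyte marker, Krt1, had scores of 1.19 and 1.18 with HuR siRNA against 1.16 and 1.18 with control siRNA. These lay above the mean of the section, on the highest-scoring of 8 Krt1 clones, and whether they reflect Krt1 transcript was not tested.

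The targeted mRNA itself was not measurably lower. Elavl1 had scores of -0.2 and -0.21 with HuR siRNA, against -0.12 and -0.2 with control siRNA, a difference of -0.045 (SE 0.047, limma adjusted p = 0.991), and a second clone differed by 0.03 (SE 0.058). The arrays therefore do not show a reduced target. One deposited table also carries NPM siRNA in its name while its columns and the labels say HuR, and the groups are called here by their labels. In RNA of whole cultures, fewer cells of a kind and less RNA per cell cannot be told apart.

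The sequences below are the promoters of the 4 genes that had a clone with an unadjusted limma p under 0.05, which are Psma4, Psmc5, Psmc1 and Psmd2. Each window of 300 bases runs from 250 before to 50 after the gene's start, read 5′ to 3′ on the plus strand, from RefSeq's GRCm38.p6 table. The windows are chr9:54950609-54950908 for Psma4, chr11:106255935-106256234 for Psmc5, chr12:100109952-100110251 for Psmc1 and chr16:20651402-20651701 for Psmd2. Capitals mark a match to 1 of 3 short motifs on either strand: the core of the antioxidant response element (TGACNNNGC), the CCAAT box (CCAAT) and the core that ETS factors bind (CCGGAAG).
Psma4: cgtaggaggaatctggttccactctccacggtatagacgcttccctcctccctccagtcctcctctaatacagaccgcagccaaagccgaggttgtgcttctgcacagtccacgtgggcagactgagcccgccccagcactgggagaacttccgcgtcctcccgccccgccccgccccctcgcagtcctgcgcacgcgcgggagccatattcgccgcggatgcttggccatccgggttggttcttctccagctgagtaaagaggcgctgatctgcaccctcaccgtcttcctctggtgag
Psmc5: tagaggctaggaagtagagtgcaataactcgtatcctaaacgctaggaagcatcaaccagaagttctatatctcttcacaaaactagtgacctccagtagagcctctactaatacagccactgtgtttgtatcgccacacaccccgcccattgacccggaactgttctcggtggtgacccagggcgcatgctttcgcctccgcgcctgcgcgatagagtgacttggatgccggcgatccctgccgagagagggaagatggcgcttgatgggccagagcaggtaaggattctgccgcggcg
Psmc1: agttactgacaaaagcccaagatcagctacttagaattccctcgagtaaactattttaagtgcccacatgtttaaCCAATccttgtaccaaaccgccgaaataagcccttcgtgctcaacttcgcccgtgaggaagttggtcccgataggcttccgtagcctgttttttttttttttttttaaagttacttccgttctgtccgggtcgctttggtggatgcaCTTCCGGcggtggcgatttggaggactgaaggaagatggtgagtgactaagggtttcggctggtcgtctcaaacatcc
Psmd2: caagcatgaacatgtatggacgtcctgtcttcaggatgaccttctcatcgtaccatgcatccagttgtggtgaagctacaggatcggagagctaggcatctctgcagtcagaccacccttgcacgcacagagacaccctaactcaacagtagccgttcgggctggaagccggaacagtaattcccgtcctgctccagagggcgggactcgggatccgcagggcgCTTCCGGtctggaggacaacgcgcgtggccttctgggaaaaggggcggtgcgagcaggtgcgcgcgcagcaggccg
The Psmc1 and Psmd2 windows each hold the ETS core on the other strand, 28 and 26 bases before the gene's start, and the Psmc1 window also holds a CCAAT box. None of the 3 motifs is in the Psma4 and Psmc5 windows. Such a match is a description of letters and no measured binding.

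Of the 32 proteasome genes, 26 had a window in that table, 28 windows in all. Psmb1, Psmb2, Psmb7, Psmc3, Psmd3 and Psmd7 had none. The ETS core was found in 10 of the 28 windows (35.7%), against 8.86% of the 32851 windows of all genes. It was present for Psma6, Psmc1, Psmc2, Psmd2, Psmd4, Psmd11, Psmd12, Psmd13 and Psme3. The CCAAT box was found in 39.3% of the proteasome windows and in 37.4% of all windows. The antioxidant response element, through which the factor Nfe2l1 is known to raise proteasome genes when proteasome activity is low, had its core in 4 windows (14.3%, against 12.4% of all windows), those of Psmb5, Psmb6, Psmd9 and Psmd12. The median GC content was 55.8% in the proteasome windows and 52.7% in all windows, and no match for base composition was made.

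No proteasome gene differed between HuR siRNA and control siRNA at the threshold. At a limma adjusted p under 0.05, with adjustment over all 14063 features (genes or unnamed clones), 0 of 32 members passed, as did 0% of all features. The differences of the 32 members ran from -0.15 to 0.14, with a median of -0.005, beside a median of 0 over all features. Of the members 10 lay higher with HuR siRNA, 18 lay lower and 4 had equal means. Over all features 49.7% lay higher and 46.8% lower. An absolute difference over 0.1 was found for 3 members (9.38%), Psma2, Psma4 and Psmc5, against 13.7% of all features. With the median of each grid of spots subtracted on every array, these 3 were at 0.012, 0.095 and 0.032, and Psme1 alone exceeded that size, at 0.14.

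**Figure D1:**
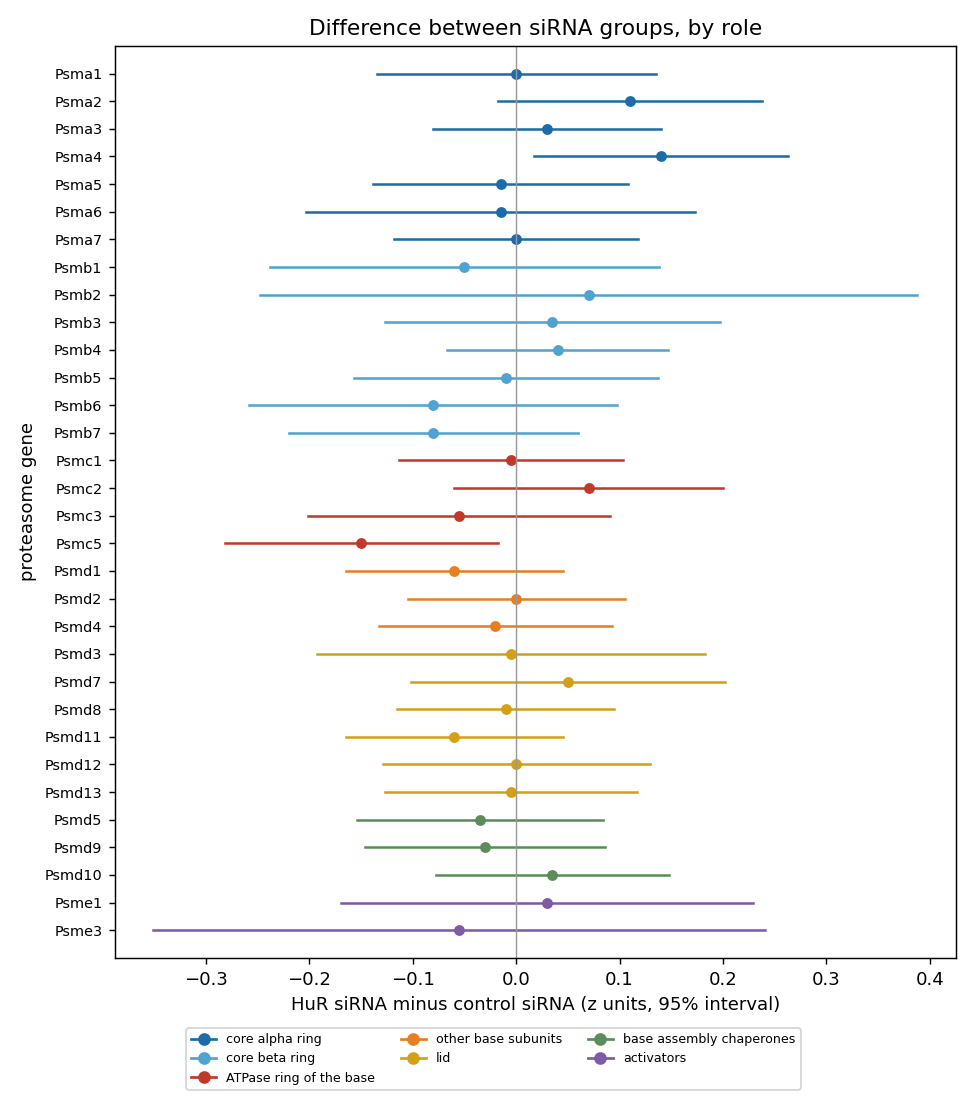
Difference in z-score between HuR siRNA and control siRNA (horizontal axis, z units) for each of the 32 proteasome genes (vertical axis), with limma's 95% interval as a bar and the role group as the colour. Differences lie between -0.15 (Psmc5) and 0.14 (Psma4), and the bars of these 2 genes alone leave out 0.

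An unadjusted p under 0.05 was reached by 2 of the 32 members (6.25%), against 3.75% of all features. They lay on opposite sides, Psma4 higher and Psmc5 lower, where 1.42% of all features were higher and 2.34% lower at that threshold. With 1 array left out at a time, the difference ran from 0.11 to 0.17 for Psma4 and from -0.19 to -0.11 for Psmc5. The arrays of the groups did not overlap for 4 members that lay higher and 4 that lay lower with HuR siRNA, together 25%. Over all features this held for 13.6% in the higher and 13.7% in the lower direction, together 27.2%, so the members' share lay near the background. An exact permutation test of 2 arrays against 2 cannot give a two-sided p below 0.333, so single genes have no test beyond limma's.

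The 95% intervals are those of single genes, not adjusted over the features, and cover only array-to-array spread. They do not say how large a difference the adjusted threshold could have missed. Their half-widths ran from 0.105 to 0.318 z units with a median of 0.129. For 27 of the 32 members the whole interval lay within 0.25 z units of 0, and for 30 it included 0. The widest belonged to Psmb2, a beta ring subunit, whose interval ran from -0.248 to 0.388.

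The alpha ring held the member with the largest difference above 0. Psma4 (gene ID 26441) had scores of 0.72 and 0.66 with HuR siRNA, against 0.53 and 0.57 with control siRNA. Both HuR siRNA arrays were above both control arrays, with means of 0.69 ± 0.042 (HuR siRNA) against 0.55 ± 0.028 (control siRNA; SD, n = 2 each). Psma4 thus differed by 0.14 (SE 0.045, 95% interval 0.017 to 0.263), with an unadjusted p of 0.0334 and a limma adjusted p of 0.991. Psma2 had scores of 0.28 and 0.2 with HuR siRNA, against 0.12 and 0.14 with control siRNA, again without overlap, and differed by 0.11 (SE 0.047, unadjusted p = 0.0765, limma adjusted p = 0.991). The Psma2 difference was 0.012 with grid medians subtracted and 0.07 without HuR siRNA replicate 1. Psma1 read 2.24 and 2.21 with HuR siRNA, against 2.18 and 2.27 with control siRNA. Its means were equal, and the control arrays lay on both sides of the HuR siRNA arrays. Of the 7 measured alpha ring genes 3 lay higher, 2 lower and 2 at 0, with a median of 0. Psma3 had scores of 0.81 and 0.78 with HuR siRNA, against 0.78 and 0.75 with control siRNA, a difference of 0.03 (SE 0.041). Psma7 had 0.83 and 0.85 with HuR siRNA, against 0.81 and 0.87 with control siRNA, with equal means. The groups overlapped for both, as they did for Psma5 and Psma6, which differed by -0.015 each.

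All 7 constitutive beta ring genes were measured, 3 higher and 4 lower, with a median of -0.01. The catalytic subunits are encoded by Psmb5 (chymotrypsin-like), Psmb6 (caspase-like) and Psmb7 (trypsin-like). Psmb5 had scores of 0.95 and 1.06 with HuR siRNA, against 1 and 1.03 with control siRNA, a difference of -0.01 (SE 0.054), and its HuR siRNA arrays lay on both sides of the controls. Psmb6 had scores of -0.27 and -0.12 with HuR siRNA, against -0.09 and -0.14 with control siRNA, which overlap. Psmb7 had scores of -0.76 and -0.66 with HuR siRNA, against -0.64 and -0.62 with control siRNA. Its groups did not overlap, but the gap was 0.02 where the HuR siRNA arrays themselves were 0.1 apart. Psmb6 and Psmb7 each differed by -0.08 (SE 0.066 and 0.052, limma adjusted p = 0.991). Without HuR siRNA replicate 1 they were at -0.005 and -0.03, and without HuR siRNA replicate 2 at -0.155 and -0.13. Psmb7 was at -0.018 with grid medians subtracted. Psmb4, a subunit without a catalytic site, read 0.91 and 0.94 with HuR siRNA, against 0.89 and 0.88 with control siRNA, a difference of 0.04 (SE 0.04). Psmb3 differed by 0.035 (SE 0.06) and Psmb1 by -0.05 (SE 0.069). Psmb2 had -0.49 and -0.2 with HuR siRNA, against -0.34 and -0.49 with control siRNA, so each group spread over more than the difference of 0.07 between their means. The inducible subunits that replace these in immune cells (Psmb8, Psmb9 and Psmb10) were not matched to a named clone here. Neither were Psma8, Psmc4 and Psme2 of the other role groups.

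No gene of the regulatory particle passed the adjusted threshold either. Of the ATPase ring 4 of 6 genes were found by symbol, 1 higher and 3 lower, with a median of -0.03. Psmc5 (gene ID 19184) had scores of 0.03 and 0.07 with HuR siRNA, against 0.24 and 0.16 with control siRNA. Both HuR siRNA arrays were below both control arrays, with means of 0.05 ± 0.028 (HuR siRNA) against 0.2 ± 0.057 (control siRNA; SD, n = 2 each). Psmc5 thus differed by -0.15 (SE 0.049, 95% interval -0.282 to -0.018), with an unadjusted p of 0.0339 and a limma adjusted p of 0.991. With grid medians subtracted, the difference of Psmc5 was 0.032, so its direction depends on that setting. Psmc3 had 1.09 and 1.2 with HuR siRNA, against 1.21 and 1.19 with control siRNA, and differed by -0.055 (SE 0.054). Its HuR siRNA arrays lay on both sides of the control array with 1.19.

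Among the other base subunits, Psmd1 had scores of 0.22 and 0.2 with HuR siRNA, against 0.27 and 0.27 with control siRNA. Psmd1 encodes one of the large base subunits that carry docking sites for ubiquitin receptors. Its groups did not overlap, and it differed by -0.06 (SE 0.039, limma adjusted p = 0.991). Psmd2, the other large scaffold, had 1.66 and 1.68 with HuR siRNA, against 1.67 and 1.67 with control siRNA, with equal means. Psmd4, a ubiquitin receptor, differed by -0.02 (SE 0.042).

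In the lid, 6 of 8 genes were found by symbol, 1 higher, 4 lower and 1 at 0, with a median of -0.005. Psmd11, a structural lid subunit, had scores of -0.41 and -0.39 with HuR siRNA, against -0.34 and -0.34 with control siRNA. Its groups did not overlap, and the difference was -0.06 (SE 0.039, limma adjusted p = 0.991). Psmd12 read 1.13 and 1.07 with HuR siRNA and the same scores, 1.07 and 1.13, with control siRNA. Psmd8 differed by -0.01, Psmd13 and Psmd3 by -0.005 each, all of them with overlap. Psmd7, the partner of the lid's deubiquitinase, had 0.34 and 0.29 with HuR siRNA, against 0.32 and 0.21 with control siRNA, and differed by 0.05 (SE 0.056).

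**Figure D2:**
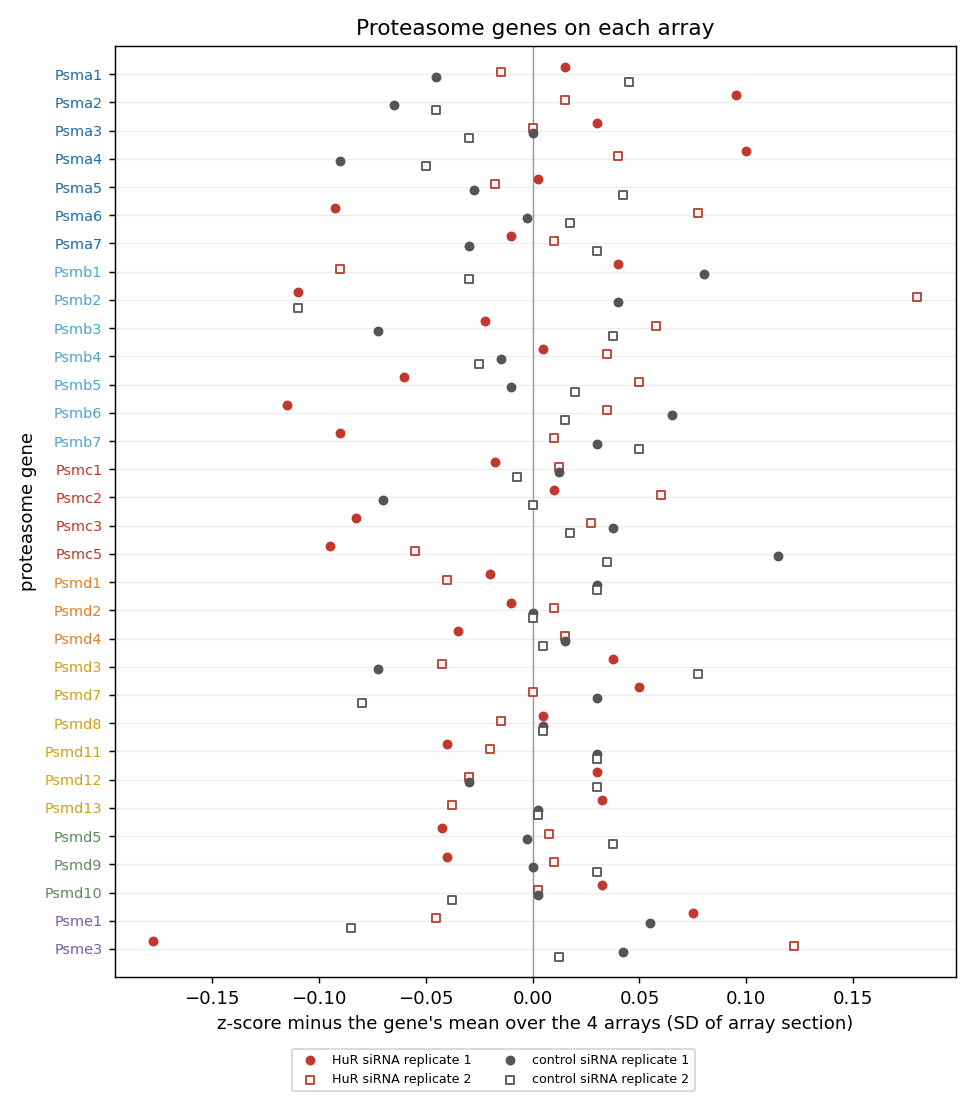
Score of each of the 32 proteasome genes on each array, minus the gene's own mean over the 4 arrays (horizontal axis, z units), with red points for the HuR siRNA arrays and grey points for the control siRNA arrays. The red points of Psma2, Psma4, Psmb4 and Psmc2 lie right of the grey ones. Those of Psmb7, Psmc5, Psmd1 and Psmd11 lie left of them, while for most genes the colours mix.

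Among the chaperones that assemble the base, the groups overlapped on all 3 chosen clones. Psmd9 had 3.03 and 3.08 with HuR siRNA, against 3.07 and 3.1 with control siRNA, a difference of -0.03 (SE 0.043). Psmd10, also known as gankyrin, had 1.73 and 1.7 with HuR siRNA, against 1.7 and 1.66 with control siRNA, a difference of 0.035 (SE 0.042). Psmd5 differed by -0.035 (SE 0.044). A second Psmd10 clone had -0.61 and -0.58 with HuR siRNA, against -0.66 and -0.65 with control siRNA, a difference of 0.06 (SE 0.041) without overlap.

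Of the activators, which open the core in place of the regulatory particle, Psme1 and Psme3 were found by symbol. Psme1, a subunit of the interferon-inducible cytosolic activator, had scores of 0.59 and 0.47 with HuR siRNA, against 0.57 and 0.43 with control siRNA. The difference was 0.03 (SE 0.074), and replicate 1 lay above replicate 2 in both groups. Psme3, which forms a nuclear activator, had -0.52 and -0.22 with HuR siRNA, against -0.3 and -0.33 with control siRNA. Its 2 HuR siRNA arrays were 0.3 apart, the largest gap between arrays of one group among the members, and both control arrays lay between them.

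The other clones of a gene measure the same comparison on another spot, and their values are given beside those of the chosen clone. Of the 32 members 13 had several clones, 31 in all. The clones of 7 of these genes (Psma3, Psma4, Psmc1, Psmc3, Psmd1, Psmd10 and Psme1) lay on 1 side of 0, and those of the other 6 did not. All 7 were among the 8 members with 2 clones (87.5%, against 49.9% of the 1360 genes with 2 clones). Of the 5 members with 3 clones 0 had them all on 1 side, against 24.8% of the 383 genes with 3 clones. A clone at a difference of 0 was not counted as on a side. Psma7 and Psmd2 missed this count only through a chosen clone at 0, with their other clones on 1 side. No test of these shares was run. With every clone fitted as its own feature, 4 of the 50 clones (8%) had an unadjusted limma p under 0.05, against 3.95% of the 16834 clones tested, and 0 passed after adjustment. Each of the 4 belonged to another gene, and 2 were not the clone chosen for its gene.

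Both clones of Psma4 parted the groups in the same direction. Its second clone had scores of 0.02 and 0.02 with HuR siRNA, against -0.05 and -0.02 with control siRNA, a difference of 0.055 (SE 0.041). Both clones thus lay higher on both HuR siRNA arrays, by 0.14 on the one and 0.055 on the other. Psmd2 had a second clone with -0.31 and -0.29 with HuR siRNA, against -0.58 and -0.44 with control siRNA, which differed by 0.21 (SE 0.062, unadjusted p = 0.0244, limma adjusted p = 0.99). Its dimmest clone differed by 0.085 (SE 0.064), also without overlap, while the chosen clone had equal means. That dimmest clone had -1.03 and -1.03 with HuR siRNA, against -1.04 and -1.19 with control siRNA. All 4 scores lay below the most frequent score of their array section.

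Psmc1, an ATPase ring gene, gave unlike differences on clones of nearly equal score. Its chosen clone had 0.59 and 0.62 with HuR siRNA, against 0.62 and 0.6 with control siRNA, a difference of -0.005 (SE 0.04). Its second clone, from the same source plate, had 0.51 and 0.43 with HuR siRNA, against 0.68 and 0.63 with control siRNA, a difference of -0.185 (SE 0.051, unadjusted p = 0.019, limma adjusted p = 0.99). The groups overlapped on the one and were parted on the other.

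Psmc5 and Psmc2 also differed between clones. The other clones of Psmc5 differed by 0.03 (SE 0.074) and 0.01 (SE 0.06), against -0.15 on the chosen clone. The clone at 0.01 was dim. Its HuR siRNA scores, -0.68 and -0.71, were the most frequent values of their array sections, so its difference says little. The chosen Psmc2 clone had 0.08 and 0.13 with HuR siRNA, against 0 and 0.07 with control siRNA, a difference of 0.07 (SE 0.048) without overlap. Its other clones lay lower, by -0.12 (SE 0.105) and -0.05 (SE 0.05), and all 3 were on 1 source plate. A further spot listed as Psmc2 also carries an identifier of Tmem63a, which encodes an ion channel, and was left out. It had 2.36 and 2.29 with HuR siRNA, against 2.37 and 2.33 with control siRNA, and taking it for Psmc2 gave a difference of -0.025.

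Of the remaining genes with several clones, none had a clone with an unadjusted p under 0.05. The Psma7 clones differed by 0, -0.02 and -0.105, and the Psmd12 clones by 0, 0.025 and -0.035. The Psmd7 clones differed by 0.05 and -0.05. The second clones differed by 0.075 for Psma3, -0.015 for Psmc3, -0.02 for Psmd1 and 0.01 for Psme1.

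**Figure D3:**
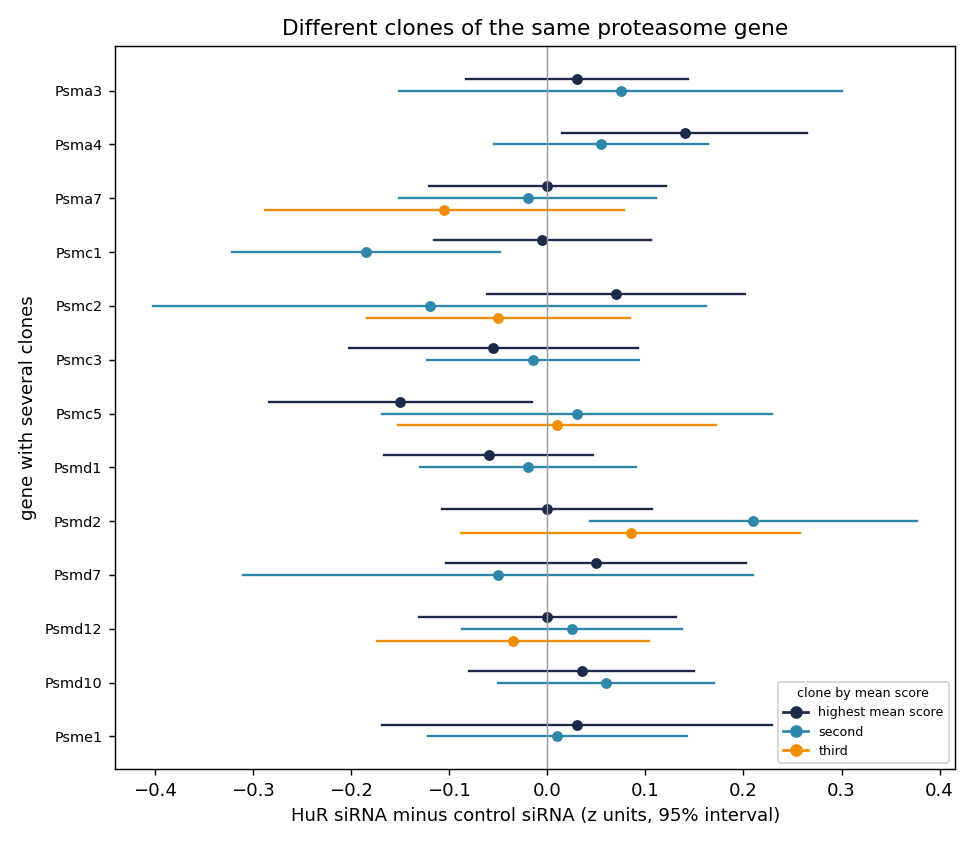
Difference in z-score between HuR siRNA and control siRNA (horizontal axis, z units, bars are 95% intervals from the fit over all clones) for every clone of the 13 proteasome genes with several clones (vertical axis), coloured by the order of the clones' mean scores. Clones of Psma4 lie right of 0 together, whereas those of Psmc2, Psmc5 and Psmd7 fall on both sides.

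A further 6 proteasome genes stood in the deposited table under older symbols and were therefore not found by the rule. They are Psmd6 and Psmd14 of the lid, Psmc6 of the ATPase ring, the activator Psme4, the inhibitor Psmf1, and Psmb11, a subunit of the thymus form of the core. Of these 4 lay higher and 2 lower with HuR siRNA, from -0.035 to 0.095, and 0 had an unadjusted limma p under 0.05. Psmd14, which encodes the lid's deubiquitinase, had scores of -0.01 and 0.04 with HuR siRNA, against -0.05 and -0.06 with control siRNA, a difference of 0.07 (SE 0.042) without overlap. Psmf1 had -1.65 and -1.85 with HuR siRNA, against -1.8 and -1.89 with control siRNA, which overlap. With these genes added, the median over 38 genes was -0.005.

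Gaps between arrays of different groups were close to those between arrays of one group. The median absolute difference of the 32 members was 0.05 between the 2 HuR siRNA arrays and 0.035 between the 2 control arrays. Between a HuR siRNA and a control siRNA array it was 0.035 to 0.065. For 6 of the 32 members the difference of the group means was larger than both gaps between arrays of one group, and this share over all features was 18.1%. HuR siRNA replicate 1 held the lowest of the 4 scores for 14 members, ties counted, against 5 for HuR siRNA replicate 2, 9 for control siRNA replicate 1 and 6 for control siRNA replicate 2. The median difference over the members was 0.0025 without HuR siRNA replicate 1, -0.0075 without HuR siRNA replicate 2, -0.0225 without control siRNA replicate 1 and -0.005 without control siRNA replicate 2.

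**Figure D4:**
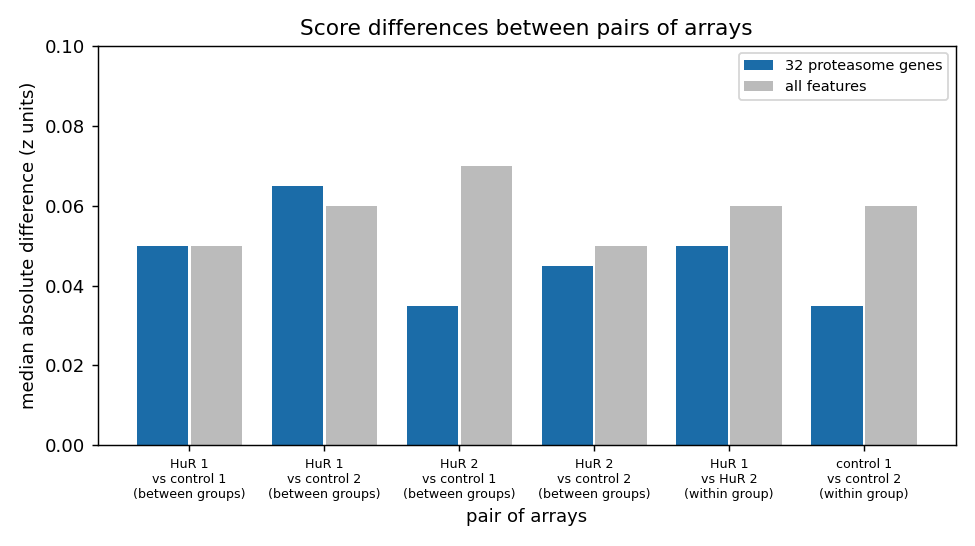
Median absolute difference in z-score (vertical axis) between the arrays of each pair (horizontal axis), over the 32 proteasome genes in blue and over all features in grey. The blue bars of the pairs between groups (0.035 to 0.065) span those within groups (0.035 and 0.05).

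Genes that act with the proteasome were read from a list of 40 genes, of which 30 were measured. They comprise assembly factors, shuttle and ubiquitin receptors, ubiquitin genes, the activating enzymes and transcription factors of proteasome genes. At a limma adjusted p under 0.05, 0 of 30 passed, and 1 (3.33%) had an unadjusted p under 0.05, against 3.75% of all features. With HuR siRNA 16 lay higher, 12 lower and 2 at 0, with a median of 0.02. The groups did not overlap for 5 higher and 6 lower genes (36.7%, against 27.2% of all features).

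Zfand5, a zinc finger protein that stimulates the proteasome and is known from mouse muscle atrophy, had scores of -0.79 and -0.81 with HuR siRNA, against -0.5 and -0.54 with control siRNA. Both HuR siRNA arrays lay below both controls, and the difference was -0.28 (SE 0.041, unadjusted p = 0.00186, limma adjusted p = 0.991). This clone is dim, and its HuR siRNA scores lay below the most frequent scores of their array sections, -0.68 and -0.71. It had no value with dim features left out. A second Zfand5 clone had -0.68 and -0.94 with HuR siRNA, against -0.89 and -0.76 with control siRNA, and differed by 0.015 (SE 0.106), with overlap. Ipo9, an importin known from human cells to carry proteasomes into the nucleus, had 0.89 and 1.08 with HuR siRNA, against 1.13 and 1.13 with control siRNA, a difference of -0.145 (SE 0.075). Both of its HuR siRNA arrays were below the controls, but the difference was -0.05 without HuR siRNA replicate 1 and -0.24 without HuR siRNA replicate 2.

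Pomp, the maturation factor of the core, had scores of 0.68 and 0.72 with HuR siRNA, against 0.58 and 0.61 with control siRNA, without overlap. It differed by 0.105 (SE 0.042, unadjusted p = 0.0616, limma adjusted p = 0.991), and by 0.012 with grid medians subtracted. Adrm1, a ubiquitin receptor of the base, had 0.4 and 0.39 with HuR siRNA, against 0.34 and 0.33 with control siRNA, a difference of 0.06 (SE 0.038). Nfe2l1 differed by 0.05 (SE 0.045) and its relative Nfe2l2 by 0.03 (SE 0.054), each with overlap.

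**Figure D5:**
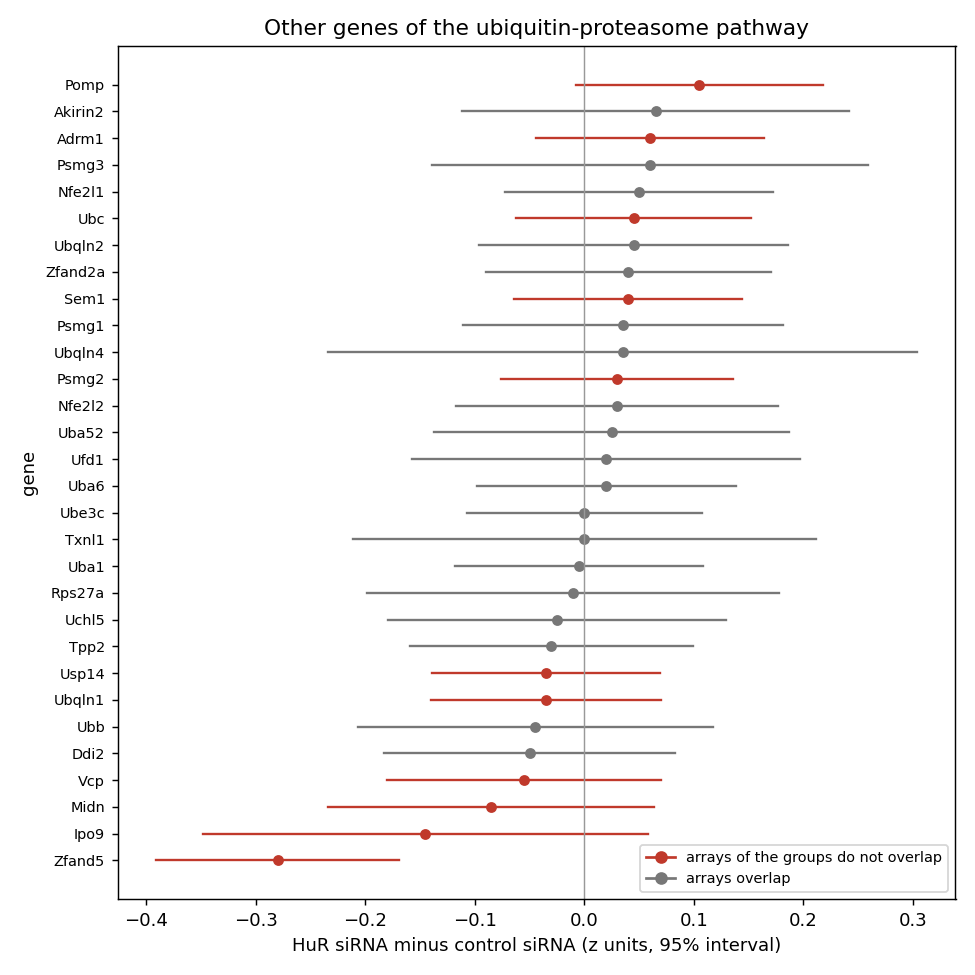
Difference in z-score between HuR siRNA and control siRNA (horizontal axis, z units, bars are 95% intervals) for the 30 measured genes that act with the proteasome (vertical axis), in red where the arrays of the groups do not overlap. Zfand5 lies at -0.28 with an interval that leaves out 0, and Pomp lies highest at 0.105.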

How the data were processed

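Arrays of cDNA clones were hybridised with radioactive (33P) cDNA made from total RNA of C2C12 cells, per the labels' protocols. Each deposited value is a z-score of the authors, with mean 0 and SD 1 in each of 2 sections of 8448 spots per array, as read from the values. How signals were read, corrected and transformed is not given in the sources used here. The other deposited table held equal scores in all 67584 cells.

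Clones were named through gene IDs, RefSeq accessions or symbols of the deposited table, updated with RefSeq's GRCm38.p6 gene table. Clone spots with disagreeing identifiers (147) stayed unnamed. Spots of a clone were averaged. For every named gene the clone with the highest mean score was kept, and each unnamed clone was its own feature. This gave 14063 features, 6726 with a symbol. Groups and replicate numbers came from the titles.

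The tests were those of limma 3.58.1 under R 4.3.3 (lmFit, eBayes, two-sided, Benjamini-Hochberg over all features, threshold 0.05). The code was run on simulated scores drawn from limma's own model and fitted spread. That run cannot show that the model holds for these arrays. The number of arrays limits the precision. Members, lists and alternatives were chosen with earlier results of these data known, and the promoter motifs after these values were seen. All members may be named. Array values were given for the 3 smallest unadjusted p per direction, the highest mean score of each role group and the chosen clone of each gene with several clones, with others added after their values were seen. The list of genes that act with the proteasome was represented by the 2 of smallest p per direction, with Nfe2l1 and Nfe2l2 added after their values were seen. Deviations of same-numbered arrays correlated at 0.1 over all features.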

Additional observations from a re-analysis of the deposited data

How the results depend on the processing

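With each alternative, 0 of the proteasome genes passed limma's adjusted threshold, and 0 to 3 had an unadjusted p under 0.05, against 2 with the scores as deposited. It was 0 without HuR siRNA replicate 1, without control siRNA replicate 1 and with the mean of a gene's clones, and 3 without HuR siRNA replicate 2. The smallest adjusted p over all features ranged from 0.0238 to 0.911. Over all features the count past the threshold was 0, except with quantile normalization within each section, where 1 feature, no proteasome gene, passed. The cause was not tested. The median difference of the proteasome genes was -0.0275 with source plate medians subtracted, against -0.005, and it ranged from -0.0225 to 0.0025 when 1 array was left out, where a lone array is assumed to vary like the other group. With the replicate block the median was -0.005 and 0 features passed. An unadjusted p under 0.05 was reached there by 0 proteasome genes and by 858 of all 14063 features. What a replicate number stands for is not stated in the labels, and pairing cannot be shown from 2 pairs. Using the disagreeing clone for Psmc2 and adding genes under older symbols were chosen after seeing the data.

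Of the 28 proteasome genes with a difference other than 0, 13 kept their sign or reached 0 under the alternatives that gave them a value and 15 turned in at least 1. Psmb6, Psmb7, Psmd5 and Psmd11 of the 13 had no value with dim features left out. The difference moved by over 1.5 times for 24 of the 28 when 1 array was left out and for 18 with grid medians subtracted. With grid medians subtracted the difference was 0.032 for Psmb1, 0.032 for Psmc5, 0.095 for Psmd13 and 0.002 for Psmd4. With source plate medians subtracted it was -0.025 for Psmb3, 0.025 for Psmb5 and -0.002 for Adrm1. With quantile normalization it was 0.001 for Psmd13 and 0.003 for Psmd3. Psmc2 was at -0.033 as the mean of its clones and at -0.025 with the disagreeing clone. Leaving out 1 array at a time gave ranges of -0.05 to 0.02 for Psma5, -0.1 to 0.07 for Psma6, -0.115 to 0.015 for Psmb1, -0.075 to 0.215 for Psmb2, -0.02 to 0.09 for Psmb3. They were -0.065 to 0.045 for Psmb5, -0.02 to 0.01 for Psmc1, -0.04 to 0.03 for Psmd13, -0.08 to 0.07 for Psmd3 and then -0.045 to 0.005 for Psmd4, -0.005 to 0.105 for Psmd7, -0.04 to 0.1 for Psme1, -0.205 to 0.095 for Psme3.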
